A study of Homo sapiens with 4 samples.

Results

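The genes described here are the human histone genes, the 82 genes of 25122 with a symbol on the array whose probe accession mapped to a histone gene by name. They were divided, by name, into 65 clustered replication-dependent genes (the H1-1 to H1-6, H2AC, H2BC, H3C and H4C genes), 13 variant genes (among them H1-10, H2AX, H2AZ1, H3-3A and MACROH2A1), 3 pseudogenes and H3-7, which belonged to neither class. They were carried by 97 probes, and 14 genes had more than 1 probe. H3-4 was placed with the variants by name, since it lies apart from the large clusters, although its protein is a germ-cell H3. Of the clustered genes in the annotation table, H2AC18, H2BC12L, H2BC18, H3C14 and H4C14 had no matched probe, and of the variants H3-5 had none.

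ESS2 is a nuclear protein that acts as a transcriptional coregulator, and the study asked what its loss does in prostate cancer cells. Total RNA from 4 cell populations was labelled with Cy3 and hybridised, 1 array each, to Agilent whole-genome expression arrays. PC3-shC and DU145-shC cells carried a short hairpin RNA (shRNA) against luciferase, and PC3-shESS2 and DU145-shESS2 cells carried an shRNA against ESS2. PC3 and DU145 are androgen-independent lines from metastases of human prostate carcinoma; all were grown in RPMI medium with fetal bovine serum. In PC3 the shRNA plasmids were selected with puromycin as stable populations; how the DU145 populations were made is not given in the sources used here.

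Nucleosomes wrap DNA around histones H2A, H2B, H3 and H4, and linker histone H1 binds where the DNA enters and leaves. The clustered genes are transcribed mainly in S phase, from gene clusters gathered in histone locus bodies with the coactivator NPAT, and their mRNAs end in a stem-loop bound by SLBP in place of a poly(A) tail. Variant genes such as H3-3A and H2AZ1 are expressed throughout the cell cycle, from polyadenylated mRNAs, and their proteins replace the canonical histones at promoters, enhancers and silent chromatin.

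Several limits apply to every value below. Each condition was 1 array, so a difference within a line has no replicate check and no test. The PC3 arrays and the DU145 arrays lay on different slides, were scanned in different sessions and carried different annotation releases, so line, slide and scan cannot be told apart. The labelling kit primes cDNA from poly(A) tails, so clustered transcripts are seen through the polyadenylated or internally primed copies of them, and the part of this in the results was not tested. Clustered genes of a family are nearly identical in coding sequence, so a probe may catch several of them and the attribution to 1 gene is uncertain.

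Values are given as the normalised signal, the processed spot intensity divided by the 75th percentile of its array, and as the log2 ratio of shESS2 over shC. Signals of different genes come from different probes and are not comparable with each other. Between spots of the same probe, among probes spotted 10 times, the median SD of the log2 ratio was 0.047 in PC3 (286 probes) and 0.053 in DU145 (283 probes), which covers spots on an array and not cultures. The 75th percentile of the 4 arrays lay between 212 and 290 intensity units and 50.8% to 52.6% of spots were well above background. The ESS2 signal was 0.506 in PC3-shC and 0.185 in PC3-shESS2, 2.74-fold lower, and 0.404 in DU145-shC and 0.0794 in DU145-shESS2, 5.09-fold lower. The epithelial markers CDH1, EPCAM, KRT7, KRT8, KRT18 and KRT19 were well above background on all 4 arrays, and KRT5 on none. EPCAM read 10.0 in DU145-shC and 1.64 in DU145-shESS2. Of 11 markers of other cell types on the array, 5 to 7 were well above background on each array, with CD14, COL1A1, PDGFRB, PTPRC and VWF among them on all 4.

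To show what the histone genes share beyond coding sequence, the 150 bases just before the transcription start of 7 of them are printed here, from RefSeq (build GRCh38.p14), each written 5′ to 3′ on the gene's strand. H2BC14 and H2BC12 stand for the H2B genes that were higher in both lines, H2BC26 and H4C16 are the clustered genes that passed 2-fold, H3C1 was among the lowest over both lines, and H2AC19 and H1-2 were among the highest. Capitals mark the octamer ATTTGCAT and the CCAAT box, each on either strand, and a TATAAA that starts 20 to 40 bases before the transcription start on the gene's strand.
H2BC14 (chr6:27814872-27815021, plus strand): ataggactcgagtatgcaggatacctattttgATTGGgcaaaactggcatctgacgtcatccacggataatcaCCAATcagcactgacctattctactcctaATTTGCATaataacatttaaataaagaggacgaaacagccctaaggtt
H2BC12 (chr6:27146856-27147005, minus strand): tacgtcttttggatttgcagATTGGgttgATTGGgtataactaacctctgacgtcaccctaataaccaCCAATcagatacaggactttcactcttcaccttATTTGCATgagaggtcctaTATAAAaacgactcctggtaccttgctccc
H2BC26 (chr1:228457953-228458102, plus strand): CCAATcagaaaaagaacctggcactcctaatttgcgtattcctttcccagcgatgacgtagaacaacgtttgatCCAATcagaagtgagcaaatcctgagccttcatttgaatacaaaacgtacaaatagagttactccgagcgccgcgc
H3C1 (chr6:26020301-26020450, plus strand): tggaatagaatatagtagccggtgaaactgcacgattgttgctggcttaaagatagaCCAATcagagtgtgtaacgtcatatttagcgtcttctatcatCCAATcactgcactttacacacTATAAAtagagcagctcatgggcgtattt
H4C16 (chr12:14771132-14771281, minus strand): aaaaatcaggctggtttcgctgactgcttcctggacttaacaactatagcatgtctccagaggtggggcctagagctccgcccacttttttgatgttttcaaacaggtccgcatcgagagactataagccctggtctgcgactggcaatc
H2AC19 (chr1:149850911-149851060, plus strand): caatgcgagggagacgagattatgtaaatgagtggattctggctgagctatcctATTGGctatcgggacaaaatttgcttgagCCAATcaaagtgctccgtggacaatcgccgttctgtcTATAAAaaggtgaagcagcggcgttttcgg
H1-2 (chr6:26056471-26056620, minus strand): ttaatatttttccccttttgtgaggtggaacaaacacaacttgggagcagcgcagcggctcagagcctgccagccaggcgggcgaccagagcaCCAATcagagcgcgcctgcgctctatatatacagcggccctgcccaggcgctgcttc

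These upstream sequences differed by family. Over promoters of 250 bases before to 50 after the start, the octamer stood in 13 of 17 H2B genes and 11 of 15 H2A genes with a promoter in the table, in 1 of 10 H3 genes and in none of 12 H4 or 6 clustered H1 genes, against 2.19% of 27305 genes. A CCAAT box stood in all clustered H1, H2A, H2B and H3 genes with a promoter but in 3 of 12 H4 genes, against 39.7% of all genes. TATAAA in its window stood in 32 of 60 clustered genes and 5 of 12 variant genes, against 2.92% of all genes. H2BC12 holds all of these motifs, H2BC26 holds CCAAT boxes without an exact octamer, and H4C16 holds none of them in the printed stretch. A match of letters is a description and does not show that a factor binds there.

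The first comparison asked whether the histone genes differed between knockdown and control in each line. Of the 65 clustered genes, 60 could be compared in PC3 and 61 in DU145, where at least 1 of the line's arrays was well above background; of the 13 variants, 12 could be compared in each, all but H1-8. The variants were lower with knockdown in 11 of 12 cases in PC3 and 12 of 12 in DU145, with median log2 ratios of -0.22 and -0.38. The PC3 count was 8 of 12 with quantile normalisation and 9 of 12 with the authors' scaled values. Clustered genes were divided: 33 were higher and 27 lower in PC3, with a median of 0.06, and 23 were higher and 38 lower in DU145, with a median of -0.22. Over all genes compared, 44.3% of 16764 were above 0 in PC3 and 47.2% of 16842 in DU145, and the medians were -0.06 and -0.02. The sign of the clustered median in PC3 depended on the scaling: it was -0.05 when arrays were scaled to their medians, which moved the median of all genes in PC3 to -0.16. Relative to the median of all genes it was 0.11 with either scaling.

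Few histone genes passed a 2-fold difference. In PC3 this was H2BC26 alone among the 73 members compared, lower with knockdown, where 3.87% of all genes were more than 2-fold lower and 3.88% more than 2-fold higher. In DU145 it was H4C16 alone among 74 members, also lower, where 2.47% of all genes were more than 2-fold lower and 2.36% more than 2-fold higher. These counts are not above what the shares over all genes would give for as many genes.

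**Figure D1:**
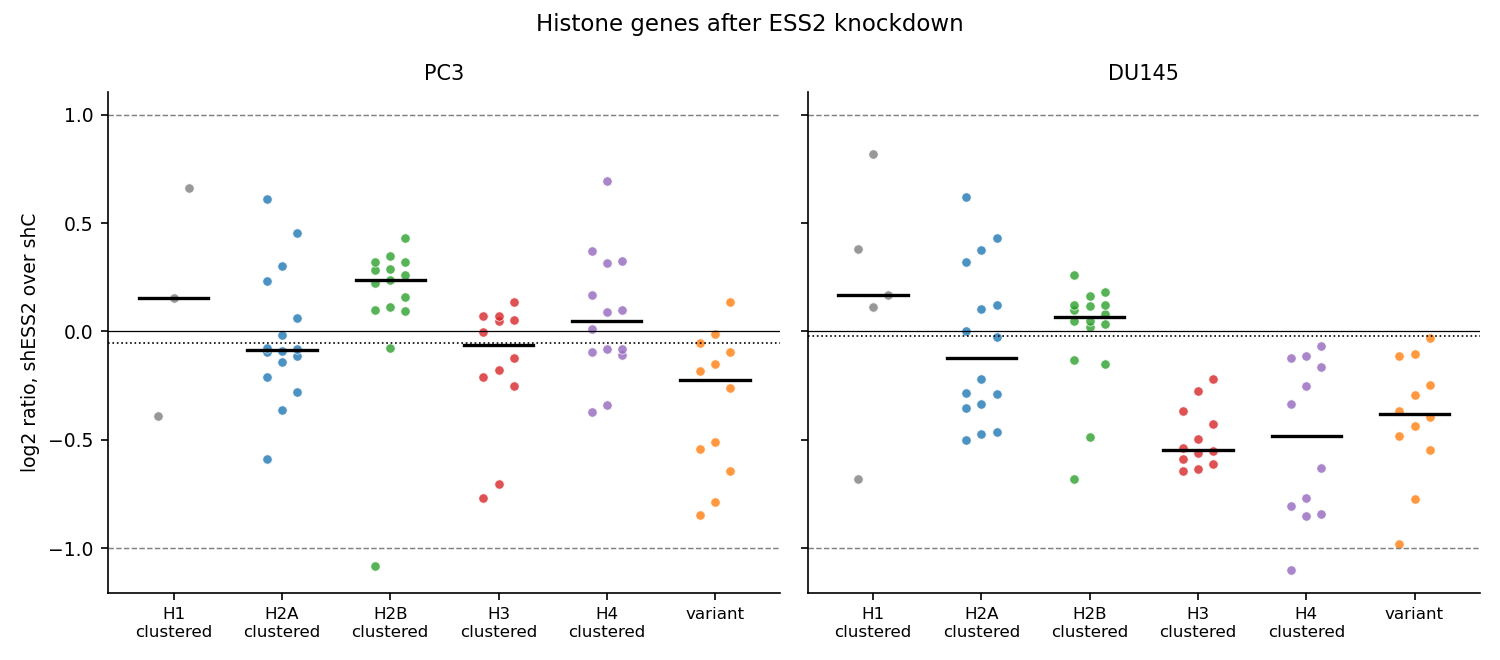
The vertical axis is the log2 ratio of shESS2 over shC in PC3 (left) and DU145 (right), with 1 point per histone gene, grouped by family; black bars are medians, the dotted line is the median of all genes and dashed lines mark 2-fold. The H3 and H4 points of DU145 all lie below 0, most H2B points lie above 0, and the variants lie below 0 except 1 in PC3. The highest points of H4 in PC3 and of H1 in DU145 rest on control signals that were not well above background.

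Among the clustered families the H2B genes were on the higher side. In PC3, 13 of 15 were above 0, with a median log2 ratio of 0.24, and in DU145, 12 of 16, with a median of 0.07. The PC3 median stayed between 0.14 and 0.34 and the DU145 median between 0.07 and 0.12 with scaling to the median, quantile normalisation, background correction by normexp and the authors' scaled values. H2BC12 had signals of 24.2 in PC3-shC, 32.6 in PC3-shESS2, 62.3 in DU145-shC and 63.8 in DU145-shESS2, so that knockdown was 1.35-fold higher in PC3 and 1.02-fold in DU145. Its second probe read 10.0, 13.0, 17.1 and 18.8 in the same order. H2BC5 read 7.79, 9.72, 12.8 and 15.3, with log2 ratios of 0.32 and 0.26.

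H2BC26, an H2B gene of a small cluster on chromosome 1, ran against its family. Its signals were 1.05 in PC3-shC, 0.493 in PC3-shESS2, 0.174 in DU145-shC and 0.109 in DU145-shESS2. Knockdown was 2.12-fold lower in PC3 and 1.6-fold lower in DU145, and the PC3 difference was under 2-fold with normexp correction and with the authors' scaled values. In DU145 its log2 ratio was -0.68, while with normexp no H2B gene there lay below -0.275. H2BC7 was the other H2B gene below 0 in both lines, with log2 ratios of -0.08 in PC3, within 2 SD between spots and above 0 with normexp or the authors' values, and -0.49 in DU145. For H2BC21 the probes differed: the one that stood for the gene gave 0.16 in PC3 and 0.02 in DU145. The other, dimmer in PC3 but brighter in DU145, gave 1.18 and 0.94, from signals of 0.0608, 0.138, 0.712 and 1.37 in the order above.

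The H2A genes were spread on both sides of 0, with 5 of 16 above 0 in PC3 and 7 of 16 in DU145. Their median was -0.09 in PC3 and -0.12 in DU145. The PC3 median turned to 0.00 with the authors' scaled values and 0.01 with quantile normalisation, and was -0.19 with scaling to the median. H2AC19 was the highest in both lines, with signals of 2.46 and 3.76 in PC3-shC and PC3-shESS2 and 8.02 and 12.3 in DU145-shC and DU145-shESS2. Both knockdown arrays were thus above their control, by 1.53-fold and 1.54-fold. H2AC18, a copy of H2AC19 that encodes the same protein, had no matched probe, and the array may not tell them apart. H2AC8 was 1.37-fold higher in PC3 and 1.08-fold in DU145, H2AC7 1.17-fold and 1.35-fold, and H2AC25 1.23-fold and 1.30-fold. H2AC25 stood 0.38 above 0 in DU145 but at -0.00 there with normexp, from signals of 0.0873 and 0.113. H2AC16 was the lowest in PC3, with 1.01 and 0.672 there and 0.745 and 0.537 in DU145, which was 1.5-fold and 1.39-fold lower with knockdown. H2AC21 moved apart in the lines, with log2 ratios of -0.21 in PC3 and 0.32 in DU145.

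H2A and H2B genes often lie head to head and share 1 promoter. There were 11 such pairs with starts 194 to 248 bases apart on opposite strands, a comparison chosen after the data were seen, and 10 could be compared in both lines. The H2B gene had the higher log2 ratio in 7 of 10 pairs in PC3 and 6 of 10 in DU145, with median differences of 0.31 and 0.15, and in 6 pairs it was the higher one in both lines. For H2AC14 and H2BC14, whose starts lie 245 bases apart, the H2A gene gave -0.08 in PC3 and -0.47 in DU145, while the H2B gene gave 0.32 and 0.12. The order was turned in both lines for H2AC7 and H2BC7, for H2AC8 and H2BC8 and, most widely, for H2AC25 and H2BC26, where the H2B gene was lower by 1.39 in PC3 and by 1.06 in DU145 on the log2 scale. H2A genes with the octamer had median log2 ratios of -0.08 in PC3 and -0.02 in DU145, against 0.10 and 0.08 for the 4 without it. H2B genes with it had medians of 0.26 and 0.05, against 0.10 and 0.11 for the 4 without it. The part of the octamer in these directions was not tested.

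All 12 H3 genes were lower with knockdown in DU145, from -0.22 to -0.64 with a median of -0.55. H3C10 gave -0.43 there, but its second probe gave 0.19. In PC3, 5 were above 0 and 7 below, with a median of -0.06, turning to 0.03 with the authors' scaled values and 0.04 with quantile normalisation. With scaling to the median it was -0.17, and 11 of 12 were below 0. H3C1 read 37.5 in PC3-shC, 22.0 in PC3-shESS2, 29.6 in DU145-shC and 20.05 in DU145-shESS2, which was 1.70-fold and 1.48-fold lower with knockdown. H3C6 read 35.6, 21.9, 24.6 and 15.8 in the same order, 1.63-fold and 1.56-fold lower. These were the lowest H3 genes in PC3; the other 10 lay between -0.25 and 0.14 there.

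The H4 genes were also lower with knockdown in DU145 in 12 of 12 cases, with a median of -0.48 that was -0.23 with normexp. In PC3, 8 of 14 were above 0, with a median of 0.05, and of -0.05 with scaling to the median. H4C2, H4C3, H4C4 and H4C13 differed in direction between the lines. H4C2 read 84.8 in PC3-shC and 106 in PC3-shESS2 but 43.6 in DU145-shC and 25 in DU145-shESS2. H4C3 gave log2 ratios of 0.17 in PC3 and -0.77 in DU145, H4C4 0.37 and -0.85, and H4C13 0.32 and -0.84. All were on the higher side in PC3 and from 1.70-fold to 1.80-fold lower in DU145. The second probes did not repeat the PC3 direction: they gave -0.09 for H4C4 and -0.04 for H4C13 there, against -0.34 and -0.69 in DU145. H4C16, an H4 gene on chromosome 12 apart from the clusters, read 0.260 in PC3-shC, 0.201 in PC3-shESS2, 0.0962 in DU145-shC and 0.0449 in DU145-shESS2. Knockdown was 1.29-fold lower in PC3 and 2.14-fold lower in DU145; the last signal lay close to background, and the DU145 difference was under 2-fold with normexp.

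Linker histone genes of the clusters were few. H1-2, which encodes an abundant somatic linker histone, read 57.0 in PC3-shC, 90.3 in PC3-shESS2, 184 in DU145-shC and 239.9 in DU145-shESS2, 1.58-fold and 1.30-fold higher with knockdown. H1-3 gave log2 ratios of -0.39 in PC3 and 0.17 in DU145, and H1-4 gave 0.15 and 0.11. H1-5 was dim, not well above background, in both PC3 populations, and in DU145 it read 3.85 in control and 2.40 with knockdown, 1.6-fold lower.

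Single variants differed in size. H3-3A, a gene for the replacement histone H3.3 that HIRA and DAXX deposit outside S phase, read 414 in PC3-shC, 265 in PC3-shESS2, 359 in DU145-shC and 246 in DU145-shESS2. It was 1.56-fold and 1.46-fold lower with knockdown, and the other 2 probes gave -1.0 and -0.53 in PC3 and -0.70 and -0.61 in DU145, so all 3 were below 0 in both lines. H3-3B, which encodes the same protein, had probes that differed: the brighter gave 0.14 in PC3 and -0.25 in DU145, and the other gave -1.0 and -0.24. The brighter H3-3B probe was listed under an H3-5 accession in the older annotation release, so the gene it reports is uncertain.

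H1-10, which encodes H1X, read 2.73 and 1.51 in PC3-shC and PC3-shESS2 and 4.33 and 2.53 in DU145-shC and DU145-shESS2, 1.80-fold and 1.71-fold lower with knockdown. Both knockdown arrays lay below both control arrays. H1-7, a germ-cell linker histone, gave -0.54 in PC3 and -0.03 in DU145, the latter within the spot spread.

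Among the H2A variants, MACROH2A2, a large H2A form of silent chromatin, read 2.28 and 1.32 in PC3 and 1.95 and 1.59 in DU145, 1.73-fold and 1.22-fold lower with knockdown. MACROH2A1 gave -0.05 in PC3, turning to 0.04 with quantile normalisation and with the authors' values, and -0.11 in DU145. H2AX, whose product is phosphorylated at DNA breaks, gave -0.18 and -0.48, and H2AZ1 and H2AZ2, for the H2A.Z of promoter nucleosomes, gave -0.26 and -0.44, and -0.15 and -0.10. H2AJ gave -0.09 in PC3, turning to 0.01 with quantile normalisation, and -0.37 in DU145. H3-4 gave -0.01 and -0.39, turning above 0 in PC3 with 3 of the 4 other scalings or corrections.

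**Figure D2:**
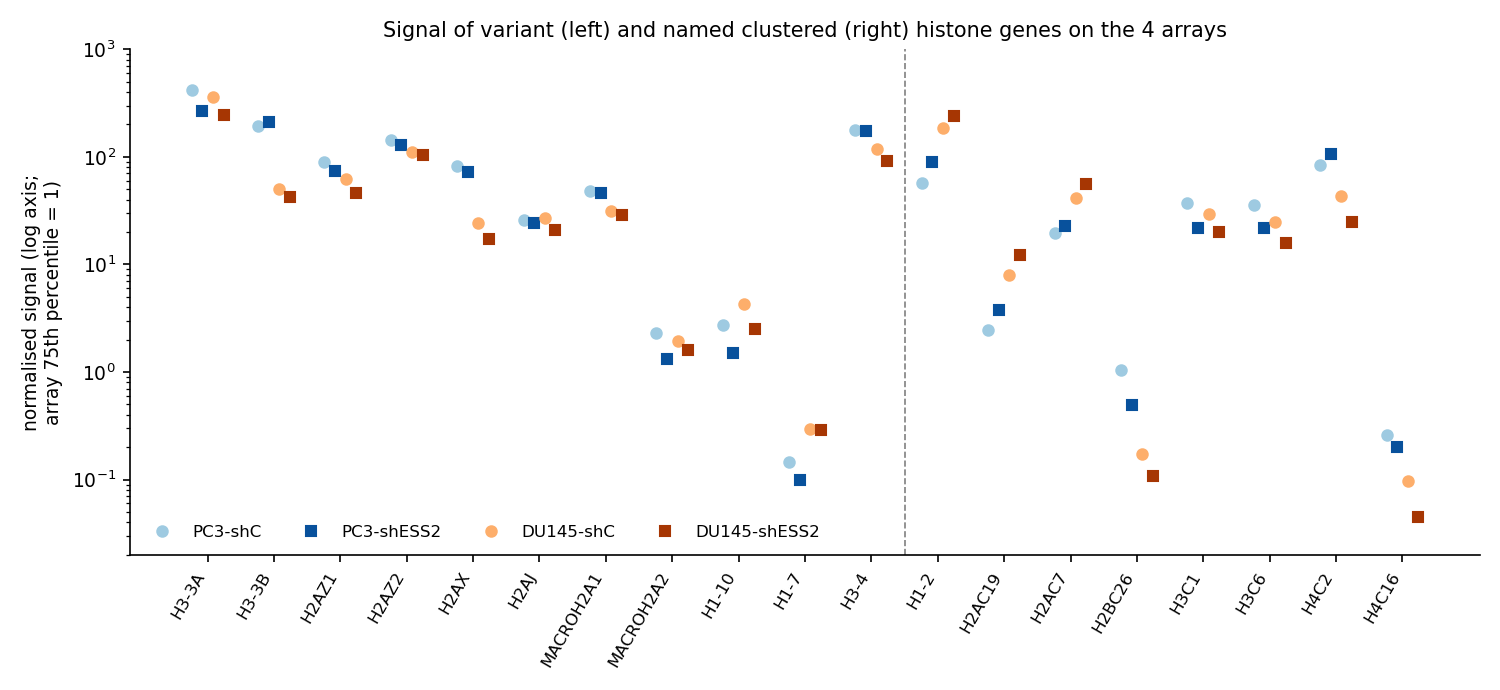
The logarithmic vertical axis gives the normalised signal on each of the 4 arrays (circles shC, squares shESS2; blue PC3, orange DU145) for 11 variants, left of the dashed line, and 8 clustered genes named in the text. H1-10, H3-3A, H3C1 and H3C6, as well as MACROH2A2 and H2AJ, have both squares below both circles of their gene.

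Across the lines the variants mostly ran one way. Of genes compared in both lines, 11 of 12 variants were below 0 in both and none above 0 in both, against 33.3% and 23.7% of all 15478 genes. This count depended on the scaling: in PC3, 8 of 12 variants were below 0 with quantile normalisation and 9 of 12 with the authors' scaled values. The clustered genes gave 24 of 58 below 0 in both and 19 of 58 above 0 in both. By family, 12 of 15 H2B genes were above 0 in both lines, and 7 of 12 H3 and 6 of 12 H4 genes were below 0 in both, with none above. Several of the H2B ratios in DU145 lay within 2 SD between spots of 0, such as 0.03 for H2BC12 and 0.05 for H2BC3. The lines share neither arrays nor controls. H3-7, a putative H3 gene outside both classes, read 0.0833, 0.151, 0.481 and 0.872 in PC3-shC, PC3-shESS2, DU145-shC and DU145-shESS2, 1.82-fold and 1.81-fold higher with knockdown. Its log2 ratios of 0.86 in both lines were 0.26 in PC3 and 0.63 in DU145 with normexp. Its second probe was not well above background in PC3 and gave 0.36 in DU145.

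A test over the 4 arrays was possible with limma, blocking on the line, which left only 1 degree of freedom for the spread. It called 0 of 17126 genes at an adjusted p under 0.05 (0%), and the lowest adjusted p was 0.75; 1047 genes (6.11%) had an unadjusted p under 0.05. Among the 74 histone genes tested, 10 had an unadjusted p under 0.05, 2 higher and 8 lower. The higher ones were H2AC19 (mean log2 change 0.62, SE 0.18) and H3-7 (0.86, SE 0.18). Among the lower ones were H1-10 (-0.81, SE 0.18), H2BC26 (-0.88, SE 0.20), H3C6 (-0.67, SE 0.18), H3C1 (-0.67, SE 0.18), H3-3A (-0.60, SE 0.18), H2AC16 (-0.53, SE 0.18) and H4C16 (-0.74, SE 0.26). None of these passed adjustment over all genes, where the limma adjusted p was 0.75 for each, so no histone gene was called changed.

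The second comparison set the control arrays of the lines side by side. Clustered H3 and H4 genes were lower in DU145-shC than in PC3-shC in all 12 and all 13 cases, with medians of -1.21 and -1.13, while 13 of 16 H2B genes were higher, with a median of 0.63. The median over all genes was -0.12; with the authors' scaled values 2 H3 genes were higher in DU145, and with scaling to the median the H2B median was 0.17. Of the 61 clustered genes compared, 8 were more than 2-fold higher in DU145-shC and 19 more than 2-fold lower, against 19.9% and 22.1% of 17475 genes. With 1 array a line, the lines could not be tested against each other, and the slide differed with the line.

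Some single genes differed far more between the lines than with knockdown. H4C5 read 22.8 in PC3-shC and 24.2 in PC3-shESS2 but was not well above background on either DU145 array, at least 559-fold lower in DU145-shC. H1-5 was the reverse, not well above background in PC3 and at least 113-fold higher in DU145-shC, at 3.85. H2BC26 was 6.01-fold lower in DU145-shC, H2BC7 5.39-fold lower and H4C1 4.19-fold lower, while H2AC19 was 3.26-fold and H1-2 3.23-fold higher. Of the variants, H3-3B was 3.86-fold and H2AX 3.41-fold lower in DU145-shC, and H1-7 2.05-fold higher.

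Genes that act on histone mRNA and protein were followed through lists chosen by function. SLBP, which binds the stem-loop, read 19 in PC3-shC, 15.0 in PC3-shESS2, 20.1 in DU145-shC and 16.9 in DU145-shESS2, log2 ratios of -0.35 and -0.25. NPAT gave -0.25 in PC3 and 0.04 in DU145. Of the 20 genes for histone mRNA transcription and 3′ end processing, 14 were lower in PC3 and 9 in DU145, with medians of -0.13 and 0.03. NFYB, a subunit of the CCAAT-binding factor NF-Y, was the list's one gene past 2-fold, with -1.04 in PC3 and 0.39 in DU145. The 9 genes for translation and decay of histone mRNA had medians of -0.00 and 0.11, and none passed 2-fold.

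Histone chaperones and exchange factors were lower in 23 of 27 cases in PC3 and 19 of 27 in DU145, with medians of -0.21 and -0.14. NASP, a chaperone of H3 and H4, was past 2-fold in PC3, from 0.529 to 0.229 with a log2 ratio of -1.20, against -0.23 in DU145. S phase markers were lower in 19 of 20 cases in PC3 and 19 of 20 in DU145, with medians of -0.36 and -0.37, and MCM3, a subunit of the replicative helicase, passed 2-fold in PC3 at -1.0, against -0.67 in DU145. They moved with the H3 and H4 genes in DU145 and with the variants in both lines, and against the H2B genes. In PC3 the H3 and H4 medians were -0.06 and 0.05. The part of S phase in those results was not tested, and fewer cells in S phase cannot be told apart from less of each RNA per cell.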

How the data were processed

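Cy3-labelled cRNA made from 0.1 µg total RNA was hybridised on 4 one-colour Agilent arrays, 1 per condition. The deposited files hold Agilent Feature Extraction output (versions 12.1.0.3 for PC3 and 12.0.3.1 for DU145, per the file headers). The deposited processed signal is an intensity, background-subtracted by that software. The authors also deposited a scaled column, a linear intensity equal to the processed signal times 1 constant per array. The number of arrays limits the precision.

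Control and outlier-flagged spots were left out, spots of a probe were averaged on the log2 scale, and each array's log2 75th percentile was subtracted. Accessions were named through the RefSeq gene table (35080 of 58201 probes, 25122 symbols). The probe of highest mean log2 signal stood for a gene. A gene was compared within a line where at least 1 array was well above background. A dim signal below the array's lowest signal well above background was set to that lowest signal, which makes the fold a lower bound ("at least"). A dim signal above it was kept as it was. Differences beyond 2-fold were counted. A fit over both lines used limma 3.58.1 in R 4.3.3 with the line as a block and Benjamini-Hochberg adjustment, on genes well above background on 2 or more arrays. The code was tested on simulated data with known changes; RefSeq promoters were searched for motif letters.

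Named genes were the compared variants, with 1 item not reported here, the 5 highest and 5 lowest clustered genes in each line and over both, those past 2-fold, and the 5 that differed most between the control arrays; the head-to-head pairs, second probes, H2BC21 and H3-7 were added after their values were seen, and from the related lists SLBP, NPAT and genes past 2-fold were named. The members, lists and tests were chosen with earlier results of these data known. The alternatives were other scalings, background correction, filters, probe rules and blocks.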

Additional observations from a re-analysis of the deposited data

Results flagged for a closer look

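Among the named histone genes, 7 had log2 ratios of shESS2 over shC of opposite sign in PC3 and DU145, each ratio more than 2 SD between spots from 0. With 1 array per condition the differences between the lines were not tested, and line, slide and scan cannot be told apart. The DU145 ratio minus the PC3 ratio was 0.56 for H1-3, 0.53 for H2AC21, -0.38 for H3-3B, -1.17 for H4C13, -1.12 for H4C2, -0.94 for H4C3 and -1.22 for H4C4. H1-3 and H2AC21 were lower in PC3 and higher in DU145, and the other 5 were the reverse. The 4 H4 genes encode the same protein, and whether their probes catch the same transcripts was not tested.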

How the results depend on the processing

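The limits are 1 array per condition, probes shared by near-identical genes and a line that is also a slide. With scaling to the median, the clustered median in PC3 reversed to -0.046 and the variant median was -0.33 (causes were not tested here or below). With quantile normalisation these were 0.13 and -0.12, and with the authors' values 0.15 and -0.13. The variant median in PC3 was -0.35 with the mean of the probes and -0.39 with each probe on its own, where 2 variant probes were more than 2-fold lower and 1 clustered probe more than 2-fold higher. When dim genes were not filtered, 1 clustered gene was more than 2-fold higher in each line and the DU145 clustered median was -0.15. With normexp, 0 clustered genes were more than 2-fold lower in either line, and the DU145 medians were -0.15 for clustered and -0.32 for variant genes; with the authors' values 0 were more than 2-fold lower in PC3.

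Between control arrays, the clustered median relative to all genes was -0.22 with quantile normalisation and -0.80 with no filter, and that of variants reversed to 0.14 with quantile normalisation and was -0.31 with normexp and -0.56 with no filter. Clustered genes more than 2-fold higher numbered 3 with scaling to the median (32 lower), 13 with quantile normalisation, 5 with normexp and 16 with the authors' values. Variants more than 2-fold higher numbered 0 with scaling to the median (4 lower), 0 with quantile normalisation, 0 with normexp, 2 with each probe on its own and 2 with the authors' values.

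Over both lines, limma called 0 genes at an adjusted p under 0.05 in every setting run. Without the block, 23 genes had an unadjusted p under 0.05, 0 of them clustered and 0 variant. The median change of clustered genes was -0.057 with the authors' values and with quantile normalisation, and that of variants -0.25 with the authors' values and -0.23 with normexp. With 1 line left out, which leaves no test, the clustered median ranged from -0.22 to 0.051 and the variant median from -0.38 to -0.22. The slide as a block is the same fit as the line. Beyond the line as a block, no paired analysis was possible because the labels carry no replicate numbers and each group is 1 array. Naming members by the array files' own symbols was not run, since no such column was used here; normexp took the median spot signal.

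Of 594 values of single genes under alternatives, 15 changed sign, all from ratios close to 0 except H3-3B in PC3, -0.43 with the mean of its probes, and H2AC25 in DU145, -0.00 with normexp.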

Other observations

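Several histone genes gave little or no signal. H1-1, H2BC1, H1-8 and the pseudogenes H1-9P, H2AC2P and H2BP1 were not well above background on any array, 6 members in all. H1-6, a testis linker histone, was well above background on the DU145-shESS2 array alone, at 0.0807 against 0.0458 in DU145-shC, and H4C7 on the PC3-shESS2 array alone, at 0.0659 against 0.0407 in PC3-shC. H2AC1, which stands head to head with H2BC1, was measured on all 4 arrays, at 0.238, 0.222, 0.229 and 0.230 in PC3-shC, PC3-shESS2, DU145-shC and DU145-shESS2.

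Where a gene had several probes compared in a line (13 genes in PC3, 14 in DU145), they gave ratios on both sides of 0 for 4 genes in PC3 and 3 in DU145. The median span of the log2 ratio between probes of a gene was 0.36 in PC3 and 0.28 in DU145, several times the SD between spots of 1 probe, and the widest spans were 1.14 and 0.92.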
